A study of Mus musculus with 20 samples.

Results

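The expression of 7 transcription factor genes, Batf, Irf4, Maf, Junb, Jund, Fosl2 and Nfil3, was followed through naive, regulatory and follicular CD4 T cells of the mouse. The members are these 7 of the 30199 gene names on the array, read from the probes that carry 1 of the 7 symbols. There were 9 such probes among the 39429 on the array, and 8 of them, with at least 1 for every gene, were among the 22264 probes bright enough to be tested. A gene was represented by its tested probe with the highest mean log2 intensity over the 20 arrays, and the other probes of Maf and Fosl2 are given beside it.

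The study hybridised RNA of sorted cells to 20 single-colour Agilent arrays that fall into 12 groups. All cells came from B6.Cg-Foxp3tm1Mal mice of both sexes, 8 to 14 weeks old, in which GFP reports Foxp3, the transcription factor that defines regulatory T cells, and every array received RNA from a pool of 8 to 15 mice. Peripheral lymph nodes (pLN) were taken 12 or 25 days (d12, d25) after subcutaneous immunisation with the protein KLH in alum, while the labels name no immunisation for Peyer's patches (PP), the lymphoid follicles of the gut wall. From pLN, the gates were GFP- PD1lo GL7- (naive), GFP+ PD1lo GL7- (Treg), GFP- PD1hi GL7+ (follicular helper, TFH) and GFP+ PD1hi with GL7 of either state (follicular regulatory, TFR). From PP, TFH cells were split into GL7+ and GL7- cells, GL7 being a glycan epitope of activated lymphocytes, and Treg and TFR cells were sorted but no naive cells. The 4 pLN d12 groups and the 4 PP groups had 2 arrays each and the 4 pLN d25 groups 1 array each.

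BATF is a small basic leucine zipper protein of the AP-1 superfamily that pairs with JUN proteins and, in T cells, binds composite DNA elements together with IRF4, an interferon regulatory factor induced through the antigen receptor. JUNB and JUND are such partners, FOSL2 is a FOS family member that competes for them, c-MAF (Maf) is a large MAF family zipper protein known for driving the cytokines IL4, IL21 and IL10, and NFIL3 is a zipper protein that mainly represses its targets. BATF, IRF4 and c-MAF are known to be required for TFH cells, and BATF and IRF4 also for effector Treg cells.

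The arrays had 43.0% to 58.0% of probes above background, and no probe had all its features saturated on any array. Each slide held 4 arrays of 1 tissue and day, so tissue, and day 25 against day 12, cannot be told apart from slide. All 6 T cell markers were above background on every array, and the 6 follicular markers were all detected in every TFH and TFR group. The summed intensity of 4 Treg markers was 422 to 589 on the pLN d12 naive arrays and 6871 to 9015 on the TFH arrays. It was 61839 to 95664 on the Treg and 41719 to 89333 on the TFR arrays. On 1 of the PP slides, slide 4, which held replicate 1 of every PP group, the summed intensity of 12 B cell genes was 56209 to 386119 against 10827 to 27598 on slide 5 with replicate 2. Of the 12, 11 were detected on the slide 4 arrays and 10 or 11 on those of slide 5. On slide 4 the 9 epithelial genes summed to 16209 to 43589 against 1615 to 2643 on slide 5. In pLN the TFH array of d12 replicate 1 stood apart: the 5 plasma cell genes, all detected, summed to 120955 against 15450 to 49912 on the 11 other pLN arrays, and the B cell genes to 40681 against 6422 to 24225. In bulk samples a smaller share of cells expressing a gene and less RNA per cell cannot be told apart. The labels speak of independent experiments, and for d12 and d25 of more of them than there are arrays per group. The tests measure the spread between arrays, and precision is limited by their number.

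Promoter sequences were available from RefSeq (build GRCm38.p6) for 6 of the 7 genes, all but Maf. The 250 bases before the transcript start are shown for Batf (chr12:85686470-85686719, plus strand), Irf4 (chr13:30748983-30749232, plus strand) and Nfil3 (chr13:52981040-52981289, minus strand), 3 genes that were higher in TFH than in naive cells, and for Fosl2 (chr5:32136222-32136471, plus strand), whose difference there was negative. They are written 5′ to 3′ along the gene, and capitals mark matches on either strand to the GC box GGGCGG, the TATA box TATAAA or the IRF-type motif GAAANNGAA.
Batf: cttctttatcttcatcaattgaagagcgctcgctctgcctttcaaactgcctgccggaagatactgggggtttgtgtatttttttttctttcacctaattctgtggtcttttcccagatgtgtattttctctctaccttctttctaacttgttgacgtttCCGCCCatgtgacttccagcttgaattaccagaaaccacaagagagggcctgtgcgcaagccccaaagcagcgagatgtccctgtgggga
Irf4: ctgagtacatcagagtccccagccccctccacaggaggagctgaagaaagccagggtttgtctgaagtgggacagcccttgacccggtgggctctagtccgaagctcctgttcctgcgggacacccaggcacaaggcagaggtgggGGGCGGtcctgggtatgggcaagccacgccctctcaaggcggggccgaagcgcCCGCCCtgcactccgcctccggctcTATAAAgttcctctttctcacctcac
Nfil3: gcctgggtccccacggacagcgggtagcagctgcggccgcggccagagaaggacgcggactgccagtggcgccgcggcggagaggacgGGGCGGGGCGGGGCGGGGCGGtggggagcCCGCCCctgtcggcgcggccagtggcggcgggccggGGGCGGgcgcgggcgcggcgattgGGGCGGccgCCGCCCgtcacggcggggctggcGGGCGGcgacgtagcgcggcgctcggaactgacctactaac
Fosl2: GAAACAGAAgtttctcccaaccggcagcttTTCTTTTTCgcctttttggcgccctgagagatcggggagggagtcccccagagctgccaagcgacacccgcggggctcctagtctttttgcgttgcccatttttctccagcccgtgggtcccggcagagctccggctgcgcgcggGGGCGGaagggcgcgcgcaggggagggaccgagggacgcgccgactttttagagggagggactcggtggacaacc

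Base composition and motif matches differed between the windows. Nfil3 had 81.6% G and C and 9 GC box matches, Irf4 had 63.6% and 2, Fosl2 64.4% and 1, and Batf 46.4% and 1, where the median window of all genes had 52.4%. A GC box match was found in 4 of the 6 members' windows and in 32.7% of all 32851 windows. The TATA box match of Irf4, with its first base at -26 from the start, was the only one among the members and 12.4% of all windows had one. IRF-type matches stood in Fosl2, with first bases at -250 and -220, and in Jund, at -10, against 7.13% of all windows. None of the 6 windows held the AP-1 motif TGANTCA (6.75% of all windows), the CRE motif TGACGTCA (1.55%), the MAF half-site TGCTGAC (3.81%) or the NFIL3-type motif TTANGTAA (2.06%). A match describes letters in this window and does not show binding.

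Batf (probe A_51_P114616, chr12:87049872-87049929, plus strand, build mm9 as given for the array) was low in naive cells, intermediate in Treg and high in every follicular group. In pLN d12 the normalised intensity was 10396 and 12175 in naive cells, 18421 and 14961 in Treg, 44163 and 36139 in TFH and 44918 and 46775 in TFR cells. On d25 it was 10716 in naive, 13912 in Treg, 37793 in TFH and 50753 in TFR cells. In PP it was 15976 and 16024 in Treg, 47920 and 41251 in GL7+ TFH, 41018 and 37622 in GL7- TFH and 64499 and 61871 in TFR cells. The 3 naive arrays lay at 10396 to 12175, the 5 Treg arrays at 13912 to 18421, the 7 TFH arrays at 36139 to 47920 and the 5 TFR arrays at 44918 to 64499, so only TFH and TFR arrays overlapped. PP TFR cells headed the order of the 12 group means (63185 ± 1859, SD, n = 2), and 6 of the 11 neighbouring pairs in that order overlapped, among them all neighbours from pLN d12 TFR down to pLN d25 TFH.

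Irf4 (A_55_P2109445, chr13:30858532-30858591, plus strand), the partner that BATF complexes recruit, separated naive cells from everything else. The naive arrays of pLN measured 913 and 1103 on d12 and 1036 on d25, and all 17 other arrays lay at 2722 to 7324. In pLN d12 the values were 6307 and 4765 in TFH, 4930 and 2722 in Treg and 6224 and 5852 in TFR cells, and on d25 3981, 3075 and 7027 in the same order. In PP they were 7136 and 4801 in GL7+ TFH, 4879 and 3305 in GL7- TFH, 5186 and 3270 in Treg and 7324 and 4501 in TFR cells. Treg, TFH and TFR arrays largely overlapped, and of the 11 neighbouring pairs of group means only 2 stood apart, pLN d25 TFR from pLN d12 TFR and pLN d25 Treg from naive cells. Within every PP pair the slide 4 array was the higher.

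Maf (A_51_P405167, chr8:118227736-118227795, minus strand) had the widest range of the 7 genes, 6.0 on the log2 scale between the highest and the lowest group mean. In pLN d12 it measured 686 and 1817 in naive cells, 8604 and 7236 in Treg, 14580 and 21876 in TFR and 61486 and 43795 in TFH cells. The d25 arrays gave 1193 in naive, 3311 in Treg, 26103 in TFR and 39142 in TFH cells. In PP the intensity was 22369 and 28621 in Treg, 57245 and 63584 in TFR, 72293 and 70493 in GL7+ TFH and 68148 and 53905 in GL7- TFH cells. In pLN the 4 cell types followed 1 order without overlap on both days (naive, Treg, TFR, TFH), while in PP TFR and GL7- TFH arrays overlapped. The naive pair differed most, with an SD of 0.99 on the log2 scale against a median SD of 0.25 over the groups of 2.

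The second Maf probe (A_55_P1962429, chr8:118207273-118207332, minus strand) was dimmer and was not above background on the 3 naive arrays and the d25 Treg array. It read 23, 26 and 20 in naive cells, 212, 120 and 145 in pLN Treg, 537, 615 and 629 in pLN TFR and 1066, 1148 and 1083 in pLN TFH cells, d12 arrays first. In PP it read 787 and 1002 in Treg, 3236 and 3744 in TFR, 3692 and 3494 in GL7+ TFH and 3233 and 4077 in GL7- TFH cells. Both probes gave the same order of the 4 cell types in pLN, and the second placed all 6 follicular arrays of pLN below all 6 of PP, which the first did not.

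**Figure D1:**
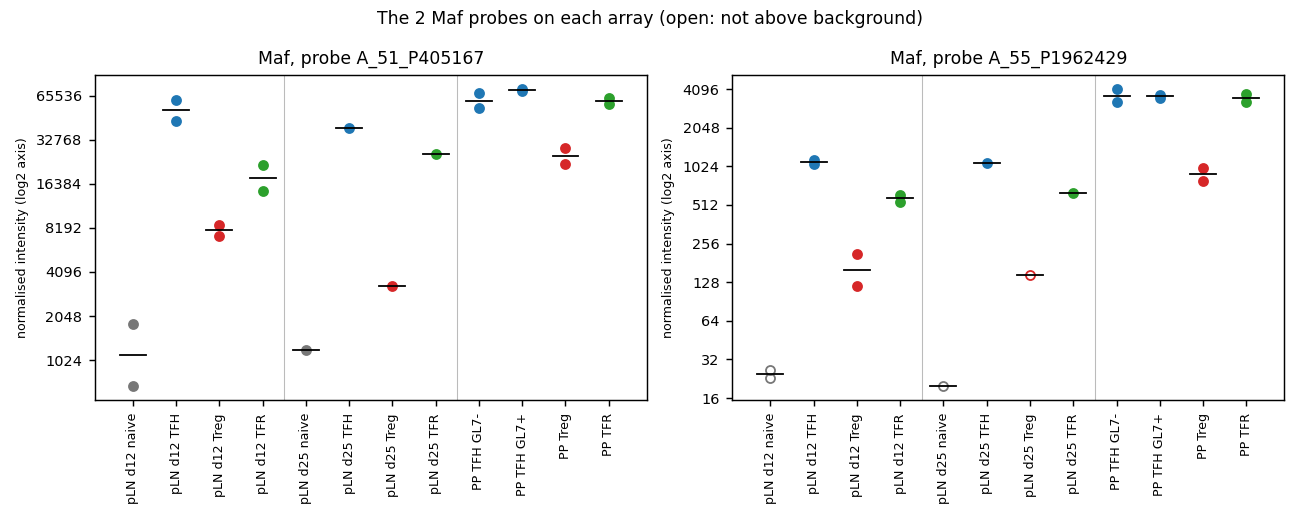
Normalised intensity (log2 axis) of the 2 Maf probes on each of the 20 arrays by group, points for arrays, bars for the geometric mean of a group, open points where the probe was not above background. On the right-hand probe the follicular arrays of pLN (537 to 1148) lie below those of PP (3233 to 4077), while on the left-hand probe 1 of the pLN d12 TFH arrays (61486) lies within the range of the PP follicular arrays (53905 to 72293) and the other (43795) below it.

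The AP-1 partners behaved otherwise. Junb (A_55_P2011106, chr8:87501881-87501940, minus strand) measured 2930 and 3293 in pLN d12 naive cells, 2284 and 1954 in TFH, 3197 and 2461 in Treg and 3915 and 2999 in TFR cells, and on d25 2079, 2048, 2668 and 2867. In PP it was 3643 and 2897 in GL7+ TFH, 4761 and 2514 in GL7- TFH, 4668 and 3863 in Treg and 7253 and 4999 in TFR cells. The 2 PP TFR arrays were the highest of all 20, and naive arrays overlapped with Treg and TFR arrays of pLN. The d25 naive array (2079) also lay within the range of the pLN TFH arrays (1954 to 2284), while the d12 naive arrays lay above it.

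Jund (A_51_P357744, chr8:73224436-73224495, plus strand) was bright on every array and varied least. It measured 42792 and 40812 in pLN d12 naive, 40972 and 37429 in TFH, 49835 and 59944 in Treg and 41446 and 47438 in TFR cells, and 45322, 49274, 64224 and 54067 on d25. In PP the slide 4 and slide 5 values were 89721 and 55847 in GL7+ TFH, 82240 and 52717 in GL7- TFH, 84525 and 57129 in Treg and 102701 and 67653 in TFR cells. Within PP the slide split the arrays more than the cell type did, with all 4 slide 4 arrays above all 4 slide 5 arrays. For Jund, group means spanned 1.09 on the log2 scale, and the test of any difference among the 12 groups (limma's F test) gave an adjusted p of 0.206, against 0.0796 for Junb.

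Fosl2 (A_55_P1995195, chr5:32460076-32460135, plus strand) was lowest in PP TFH cells and highest in PP Treg cells. It measured 443 and 427 in pLN d12 naive, 222 and 246 in TFH, 305 and 249 in Treg and 170 and 253 in TFR cells, and 499, 190, 262 and 389 on d25. In PP it was 149 and 103 in GL7+ TFH, 182 and 176 in GL7- TFH, 695 and 643 in Treg and 410 and 548 in TFR cells. The 2 PP Treg arrays were the highest of all 20, and the 4 PP Treg and TFR arrays (410 to 695) stood clear of the 4 PP TFH arrays (103 to 182). The other Fosl2 probe (A_51_P507242, chr5:32455088-32455147, plus strand) read 20 to 27 and was below background on all 20 arrays, so it was not tested.

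Nfil3 (A_55_P2035320, chr13:53062578-53062637, minus strand), the repressor of the set, was lowest in naive cells like Batf, Irf4 and Maf. It measured 226 and 282 in pLN d12 naive cells, 1317 and 940 in Treg, 4345 and 3315 in TFH and 3345 and 4212 in TFR cells, and 234, 759, 4287 and 4992 on d25. In PP it was 1766 and 1898 in Treg, 2332 and 1980 in GL7+ TFH, 2055 and 2142 in GL7- TFH and 4790 and 8331 in TFR cells. Naive, Treg and follicular arrays of pLN did not overlap on either day, whereas in PP the TFR arrays stood above both TFH groups and the TFH arrays lay just above Treg.

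**Figure D2:**
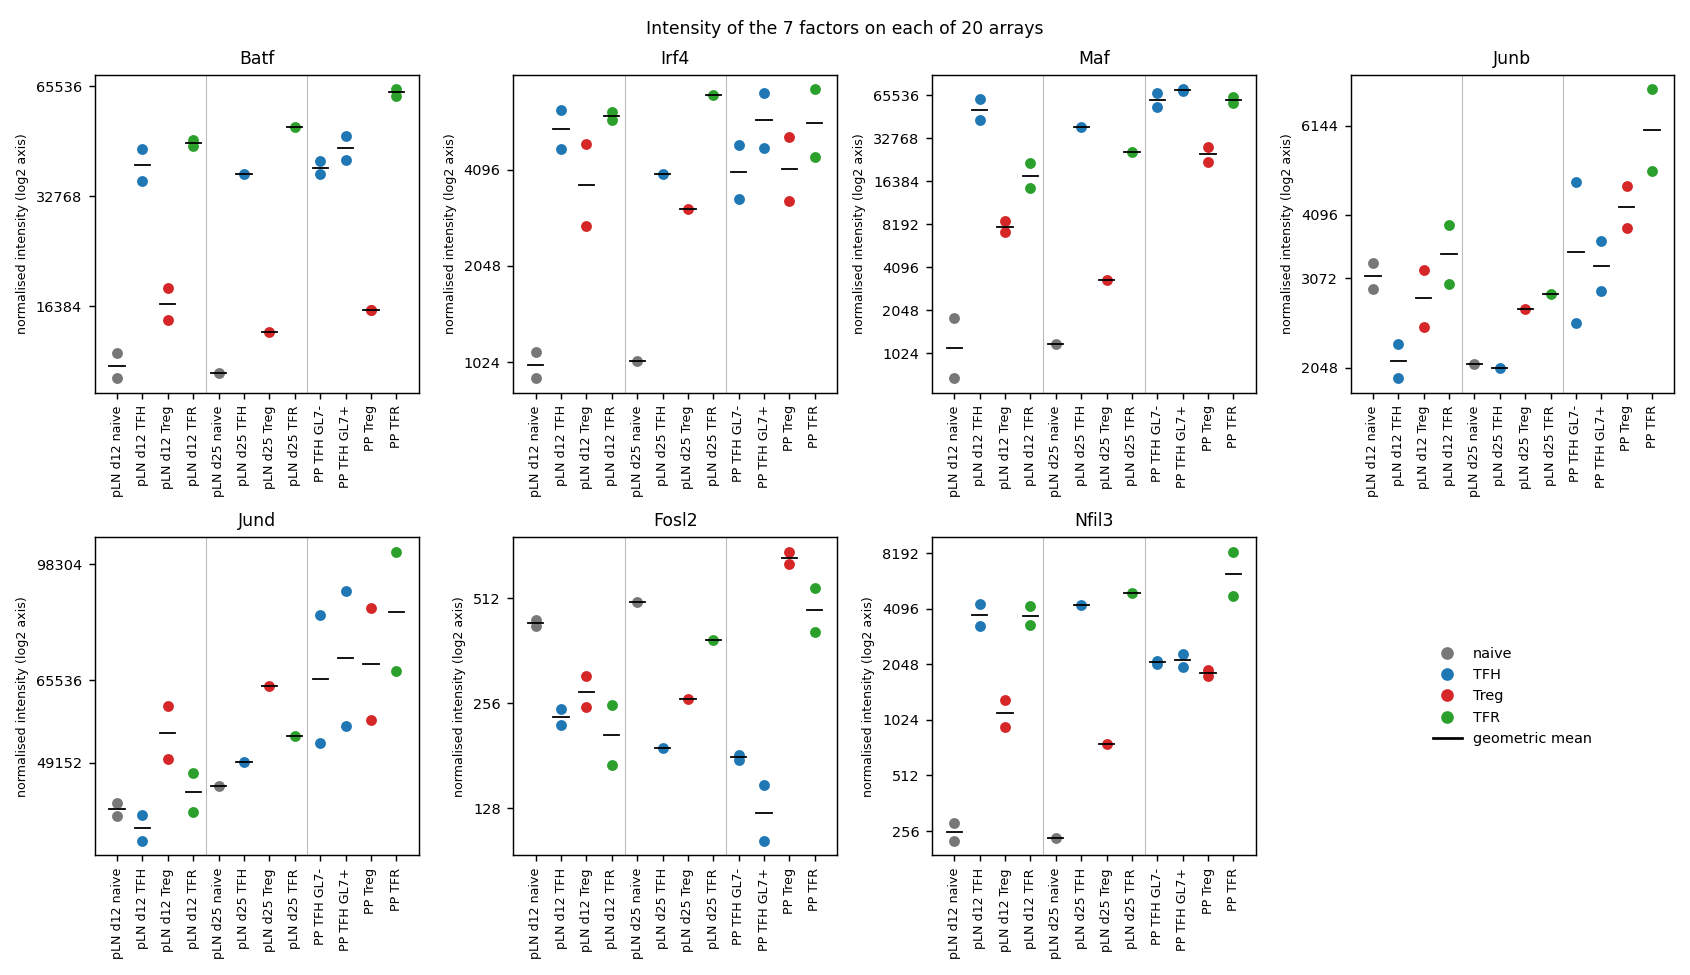
Normalised intensity (log2 axis) of the 7 genes on each of the 20 arrays by group, coloured by cell type, with bars for geometric means. Batf and Nfil3 step up from naive through Treg to the follicular groups of pLN, Irf4 separates the naive arrays (913 to 1103) from all others (2722 to 7324), and Fosl2 is highest in PP Treg (643 and 695) and lowest in PP GL7+ TFH (103 and 149).

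The difference between TFH and naive cells of pLN d12 asks which genes change along the helper path into the follicle. Of the 7 members 4 were higher in TFH cells, where 14.7% of all tested probes were called, a call being an adjusted p under 0.05 in limma with Benjamini-Hochberg adjustment and a change of at least 1 on the log2 scale, that is 2-fold. Maf was 46.5-fold higher (log2 5.54, SE 0.40, adjusted p = 1.05e-05), Nfil3 15.0-fold (log2 3.91, SE 0.28, 1.1e-05), Irf4 5.46-fold (log2 2.45, SE 0.38, 0.00107) and Batf 3.55-fold (log2 1.83, SE 0.17, 4.91e-05). Fosl2 had a difference of -0.90 (SE 0.24) that passed on p (0.0264) but not on fold, Junb one of -0.56 (adjusted p = 0.284) and Jund one of -0.09 (0.903). The median change over all tested probes was -0.09. The second Maf probe was at least 18.0-fold higher (adjusted p = 1.03e-06), a bound because naive arrays were below background. Within slide 1 and slide 2, Maf differed by 6.49 and 4.59, Nfil3 by 4.26 and 3.56, Irf4 by 2.79 and 2.11 and Batf by 2.09 and 1.57, and on the d25 slide by 5.04, 4.20, 1.94 and 1.82. Without TFH replicate 1, the array with the high plasma and B cell markers, all 4 calls held, at 5.29 for Maf, 3.72 for Nfil3, 2.25 for Irf4 (adjusted p = 0.0129) and 1.68 for Batf. The Maf value rested on which naive array was used: it was 4.84 without naive replicate 1 and 6.24 without naive replicate 2.

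Treg against naive cells of pLN d12 sets 2 cell types outside the follicular gates against each other. Maf, Nfil3 and Irf4, 3 of the 7 members, were higher in Treg, where 3.76% of probes were called. Maf was 7.07-fold higher (log2 2.82, SE 0.40, adjusted p = 0.00249), Nfil3 4.41-fold (2.14, SE 0.28, 0.00172) and Irf4 3.65-fold (1.87, SE 0.38, 0.0188). Batf differed by 0.56 (SE 0.17, adjusted p = 0.135), and Fosl2 (-0.66), Jund (0.39) and Junb (-0.15) did not pass either. Without naive replicate 1, Maf differed by 2.12, and without naive replicate 2 by 3.52. The Irf4 call was lost without Treg replicate 1 (adjusted p = 0.201), naive replicate 1 (0.147) or naive replicate 2 (0.0683), and with no filter on dim probes (0.0552).

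TFR against Treg cells is the corresponding follicular step of the regulatory lineage, and it was sampled in both tissues. Batf and Nfil3 were called higher in TFR cells in pLN d12, where 8.35% of probes were called, and in PP, where 9.25% were. Batf was 2.76-fold higher in pLN (log2 1.47, SE 0.17, adjusted p = 0.000695) and 3.95-fold in PP (1.98, SE 0.17, 8.27e-05). Nfil3 was 3.37-fold higher in pLN (1.75, SE 0.28, 0.00319) and 3.45-fold in PP (1.79, SE 0.28, 0.00241). Within slides 1, 2, 4 and 5 Batf differed by 1.29, 1.64, 2.01 and 1.95 and Nfil3 by 1.34, 2.16, 1.44 and 2.13, and on the d25 slide by 1.87 and 2.72. Both PP calls held without slide 4.

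Maf in TFR against Treg cells depended on the probe and the slide term. The main probe differed by 1.18 in pLN (SE 0.40, adjusted p = 0.0903) and by 1.25 in PP (0.0717), which is no call in either tissue. With slide as a fixed block adjusted p for the same differences was 0.0439 and 0.0365, and under a random slide block it was 0.0237 and 0.0183. The second probe was higher by 1.85 in pLN (SE 0.26, 0.00159) and 1.97 in PP (0.000803). Irf4 differed by 0.72 in pLN (adjusted p = 0.303) and 0.48 in PP (0.555), Junb by 0.29 and 0.50, Jund by -0.30 and 0.26 and Fosl2 by -0.41 and -0.50, and none of these passed. The difference between the tissues in this step was called for 0 of the 7 members, 0 at an unadjusted p under 0.05, with 0.548% of probes called. Its interval was -0.02 to 1.06 for Batf and -0.86 to 0.92 for Nfil3.

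**Figure D3:**
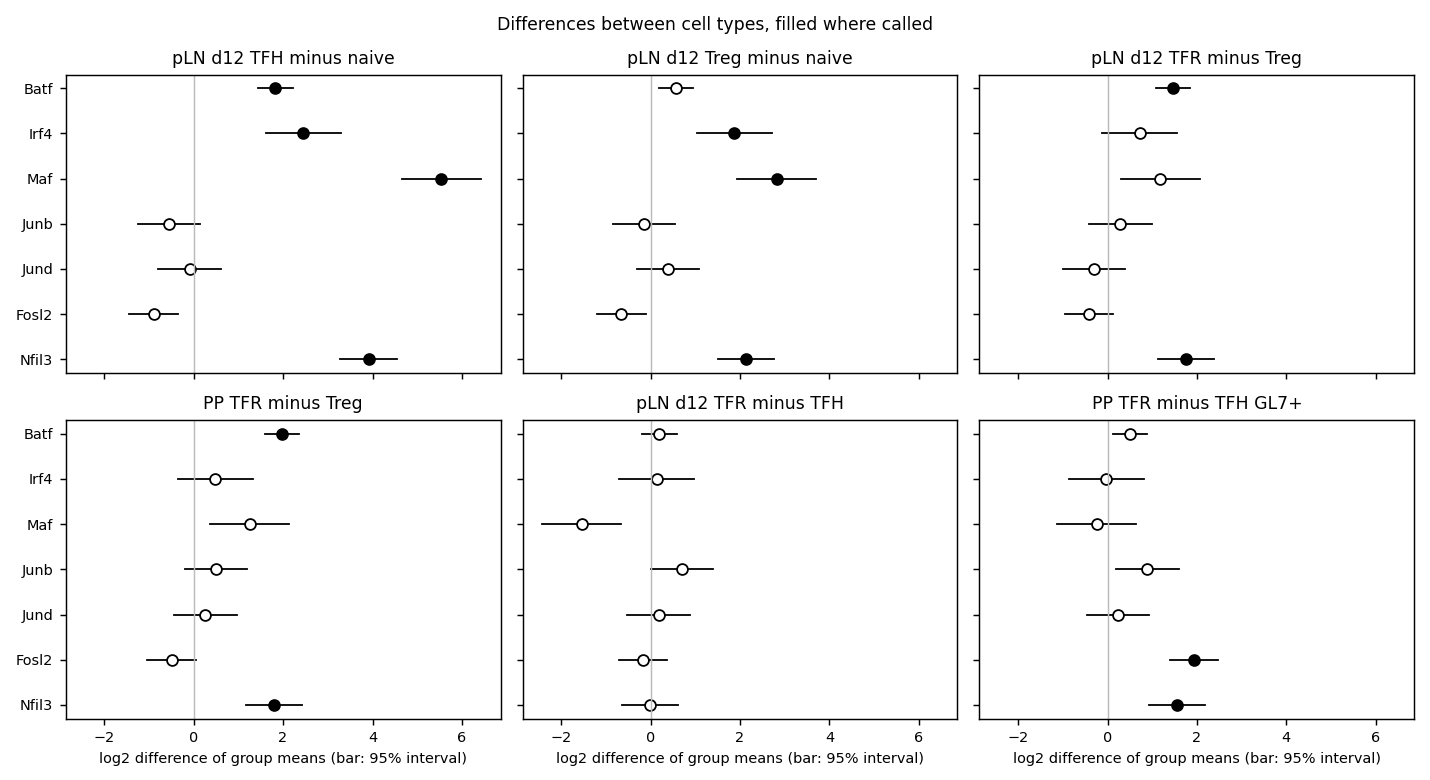
Log2 difference of group means for the 7 genes in 6 comparisons, points for estimates and bars for 95% intervals, filled where called. Maf (5.54) and Nfil3 (3.91) lie farthest right in TFH minus naive cells, Batf and Nfil3 are filled in TFR minus Treg cells of both tissues, and Fosl2 (1.93) and Nfil3 (1.56) in TFR minus GL7+ TFH cells of PP.

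The follicular step was larger in the helper than in the regulatory lineage for 2 of the members, whose starting level was lower in naive than in Treg cells. For Nfil3 the steps began at means of 254 in naive and 1129 in Treg cells. They ended at 3830 in TFH and 3778 in TFR cells, so the lineages differed at the start and not at the end. For Maf they began at 1252 and 7920 and ended at 52640 and 18228, so start and end both differed. The difference of TFR minus Treg and TFH minus naive cells in pLN d12 was called for 2 of the 7 members, with 2.18% of probes called. It was -4.36 for Maf (SE 0.56, adjusted p = 0.00303; second probe -3.65, 0.00077) and -2.16 for Nfil3 (SE 0.40, 0.0212). For Irf4 it was -1.73 (SE 0.53, adjusted p = 0.193, and 0.0118 with slide as a fixed block), and for Batf -0.36 with a 95% interval of -0.90 to 0.18. The Maf value was -3.66 without naive replicate 1 and -5.06 without naive replicate 2. The Nfil3 call was lost on leaving out naive, TFH, Treg or TFR replicate 1 or TFR replicate 2, with adjusted p between 0.0517 and 0.101.

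TFR and TFH cells share the follicle, and the comparison in pLN d12 called 0 of the 7 members, 1 at an unadjusted p under 0.05, with 5.01% of probes called. That 1 was Maf, at -1.54 on the log2 scale (95% interval -2.42 to -0.66, adjusted p = 0.0502). The difference was -2.08 within slide 1, -1.0 within slide 2 and -0.58 on the d25 slide, and it passed with slide as a fixed block (adjusted p = 0.0263) or random block (0.0105), with normexp background correction (0.0344) and in the values of the authors' own table (0.0463). The second Maf probe differed by -0.94 (adjusted p = 0.0648). Intervals were -0.18 to 0.58 for Batf, -0.70 to 0.98 for Irf4 and -0.64 to 0.61 for Nfil3, so a 2-fold difference lies outside these 3. Junb differed by 0.70 (adjusted p = 0.317), Jund by 0.18 and Fosl2 by -0.17.

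In PP the same comparison, TFR against GL7+ TFH cells, called 2 of the 7 members, with 3.44% of probes called. Fosl2 was 3.82-fold higher in TFR cells (log2 1.93, SE 0.24, adjusted p = 0.0014), by 1.46 on slide 4 and 2.41 on slide 5. Nfil3 was 2.94-fold higher (1.56, SE 0.28, 0.0117), by 1.04 and 2.07, but lost its call without GL7+ TFH replicate 1 (adjusted p = 0.0541) or 2 (0.107), without TFR replicate 2 (0.0899) or without slide 4 (0.0752). Batf (0.51, adjusted p = 0.199), Junb (0.89, 0.226), Jund (0.24), Irf4 (-0.03) and Maf (-0.24) did not pass. The difference between PP and pLN in this contrast was called for Fosl2 alone, 1 of the 7 members, with 0.611% of probes called. It was 2.11 for Fosl2 (SE 0.35, adjusted p = 0.0281), from -0.17 in pLN to 1.93 in PP. That call was lost with no filter on dim probes (0.0539), without slide 4 (2.58, adjusted p = 0.134) and without GL7+ TFH replicate 2, PP TFR replicate 2, either pLN TFH array or pLN TFR replicate 1 (0.0699 to 0.126). For Nfil3 it was 1.57 (SE 0.40, adjusted p = 0.176, and 0.0296 under a random slide block) and for Maf 1.30 (0.726).

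GL7+ TFH against Treg cells of PP called 3 of the 7 members, with 9.87% of probes called. Fosl2 was 5.39-fold lower in TFH cells (log2 -2.43, SE 0.24, adjusted p = 0.000118), by -2.22 on slide 4 and -2.64 on slide 5. Batf was 2.78-fold higher (1.47, SE 0.17, 0.000309) and Maf 2.82-fold (1.50, SE 0.40, 0.0326; second probe 2.02, 0.000557). The call of the main Maf probe was lost on leaving out any 1 of its 4 arrays (adjusted p 0.0863 to 0.148). It was also lost without slide 4 (0.426), with 75th percentile scaling alone (0.0537) or with no filter on dim probes (0.0772). Nfil3, so different from naive cells in pLN TFH, differed here by 0.23 (adjusted p = 0.752), with TFH arrays at 1980 and 2332 and Treg arrays at 1766 and 1898. Irf4 (0.51), Junb (-0.39) and Jund (0.03) did not pass.

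Between GL7+ and GL7- TFH cells of PP none of the members passed the test. The comparison called 0 of the 7, also 0 at an unadjusted p under 0.05, with 0.00898% of probes called, and the methods' t-test on the same values likewise gave 0 members before and 0 after adjustment. The difference was -0.53 for Fosl2 (95% interval -1.07 to 0.02), 0.54 for Irf4 (-0.29 to 1.38), 0.24 for Maf (-0.65 to 1.12), 0.18 for Batf, 0.10 for Jund, 0.03 for Nfil3 and -0.09 for Junb. The intervals of Fosl2, Irf4 and Maf reach beyond a 2-fold difference.

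Tissue was compared within each cell type. PP against pLN d12 Treg cells called 1 of the 7 members, with 2.24% of probes called: Fosl2 was 2.42-fold higher in PP (log2 1.28, SE 0.24, adjusted p = 0.0239). Leaving out any 1 of the 4 arrays ended that call (0.0873 to 0.161), as did leaving out slide 4 (0.113) and a random slide block (0.225). Maf differed by 1.68 (SE 0.40, adjusted p = 0.0585, and 0.0398 with normexp), and its second probe was higher by 2.48 (0.00123). Batf differed by -0.05 (95% interval -0.44 to 0.33).

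PP GL7+ against pLN d12 TFH cells called 0 of the 7 members, 3 at an unadjusted p under 0.05, with 4.54% of probes called. Those were Fosl2 (-0.91, adjusted p = 0.0583), Nfil3 (-0.82, 0.129) and Jund (0.85, 0.156). The Maf probes parted here, the main one differing by 0.46 (adjusted p = 0.608) and the second by 1.70 (SE 0.26, 0.00618).

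PP against pLN d12 TFR cells called 2 of the 7 members, with 11.1% of probes called, and 6 had an unadjusted p under 0.05. Maf was 3.38-fold higher in PP (log2 1.76, SE 0.40, adjusted p = 0.0147; second probe 2.60, 0.00033) and Fosl2 2.29-fold (1.19, SE 0.24, 0.00944). The Maf call was lost without PP TFR replicate 1 (0.0565) or 2 (0.0718), without pLN TFR replicate 1 (0.113), without slide 4 (0.124) and with a random slide block (0.129). The Fosl2 call was lost without PP TFR replicate 2 (0.0667) or pLN TFR replicate 1 (0.0845), with a random slide block (0.094), and on fold with normexp (0.95). Nfil3 differed by 0.75 (adjusted p = 0.102) and was called without PP TFR replicate 1 (1.15, 0.0364), while Batf differed by 0.46 (0.0983), Jund by 0.91 (0.077), Junb by 0.81 (0.112) and Irf4 by -0.07. The pLN d12 TFR replicate 2 array had a median background of 268, where the others had 24 to 78.

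Between d12 and d25 no member was called in any pLN cell type. The share of probes called was 0.00898% in naive, 0.0314% in TFH, 0% in Treg and 0.00898% in TFR cells, and the members with an unadjusted p under 0.05 numbered 0, 0, 1 and 1. Those were Maf in Treg (-1.25, unadjusted p = 0.0274 in limma; second probe -0.14) and Fosl2 in TFR (0.91, 0.0128), both with an adjusted p of 1. Each d25 group is 1 array that was assumed to vary like the groups of 2.

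Replicate 1 and replicate 2 of each PP group lay on different slides, and the members differed in how much that mattered. Irf4 was higher on slide 4 by 0.56 to 0.70 on the log2 scale, Jund by 0.57 to 0.68 and Junb by 0.27 to 0.92, in 4 of 4 groups each. Batf differed by 0.00 to 0.22 in size, Maf ranged from -0.36 to 0.34, Fosl2 from -0.42 to 0.54 and Nfil3 from -0.80 to 0.24. Over all tested probes 10.2% were higher by at least 0.5 on slide 4 in all 4 groups and 10.9% lower. The B cell genes summed to 3.99 times more on slide 4 than on slide 5 in GL7+ TFH, 5.19 in GL7- TFH, 10.1 in Treg and 14.0 in TFR cells. The part of the B cell and epithelial transcripts in the slide 4 excess of Irf4, Junb and Jund was not tested. The 15 immediate early genes, which respond to handling, summed to 79695 to 100555 on slide 4, 75826 to 101140 on slide 5 and 61880 to 84744 in pLN.

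**Figure D4:**
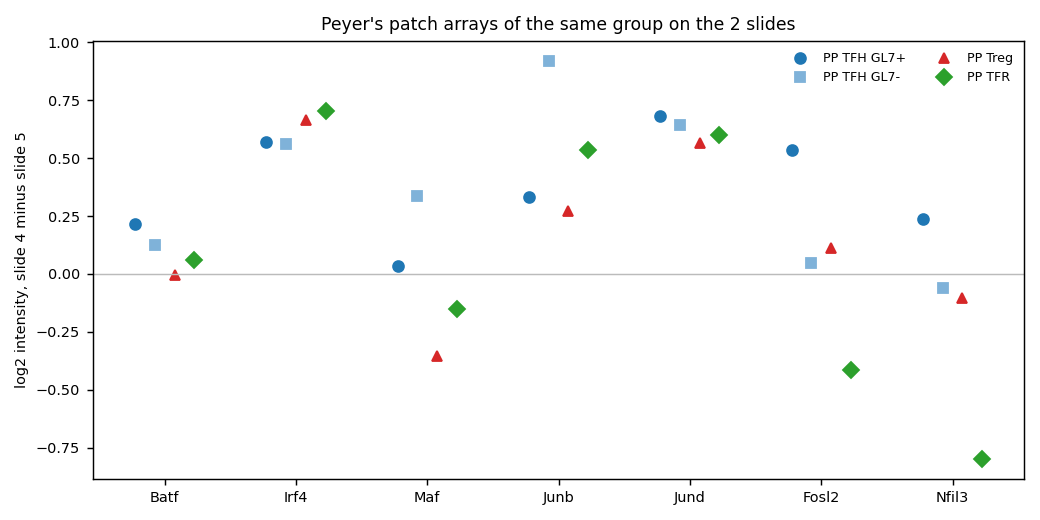
Log2 intensity of slide 4 minus slide 5 for the 7 genes in the 4 PP groups, 1 point a group. All points of Irf4 (0.56 to 0.70), Junb (0.27 to 0.92) and Jund (0.57 to 0.68) lie above 0, while those of Maf, Fosl2 and Nfil3 lie on both sides.

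Across the 12 group means of log2 intensity, Batf, Irf4, Maf and Nfil3 were lowest in the naive groups of both days. Their order of the other groups differed. PP GL7+ TFH cells ranked 1 for Maf and 6 for Nfil3, and pLN d12 TFR cells 8 for Maf and 2 for Irf4. How many of all genes reach an r as high as those below was not counted. As a description over 12 points that share arrays and slides, Pearson's r was 0.93 between Irf4 and Nfil3, 0.92 between Batf and Nfil3, 0.90 between Maf and Nfil3, 0.87 between Maf and either Irf4 or Batf and 0.84 between Batf and Irf4. Junb and Jund had r = 0.72 with each other, and Fosl2 was negative with Batf (-0.45), Maf (-0.44), Irf4 (-0.40) and Nfil3 (-0.30). Of 14546 genes, those among the 3 most like each member were Morn4, Hpn and Naprt for Batf (0.99, 0.99 and 0.98), 4930422N03Rik and Pdcd1lg2 for Irf4 (0.98 and 0.97) and Lag3, Sccpdh and B4galnt4 for Maf (0.99, 0.98 and 0.98). For Nfil3 they were Bhlhe40, Gas2l1 and Ehd1 (0.98 each), for Junb Spef1l, Tm4sf5 and Rtkn (0.93, 0.92 and 0.92), for Jund Pdia4, B3gnt3 and Ank (0.96, 0.95 and 0.94), and for Fosl2 Kctd12, Ctnnb1 and Pak1 (0.89, 0.87 and 0.87).

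Relatives of the members were read from 5 lists, the genes named being the called ones with the largest changes. For all 5 lists the counts stand beside the share of all tested probes called. That share was 14.7% in TFH against naive cells and 8.35% in pLN and 9.25% in PP in TFR against Treg cells. It was 3.44% in TFR against GL7+ TFH cells of PP. Of 8 other AP-1 and BATF genes 6 were tested. In TFH against naive cells of pLN 2 were higher and 1 lower, with a list median of 0.59. Jdp2, a dimerisation partner and repressor of JUN proteins, rose by 5.85 (SE 0.30, adjusted p = 1.53e-06) and Fosb, a FOS family member, by 1.04 (0.00602), while Jun, the classical AP-1 subunit, fell by 2.51 (SE 0.33, 0.000411). Mean intensity of Jdp2 was 99 in naive, 203 in Treg, 1685 in TFR and 5871 in TFH cells of pLN d12, and that of Jun 3786, 2402, 675 and 662. In TFR against Treg cells Jdp2 was higher and Jun lower in pLN (3.06 and -1.80) and in PP (4.0 and -1.88), where Atf3, a stress-induced zipper factor, was at least 2.35-fold lower (adjusted p = 0.0014). The Fosb call was lost in 4 of 11 alternatives and that of Jun in pLN TFR cells in 3, while those of Jdp2 and Jun in TFH cells held in all 11. TFR against GL7+ TFH cells of PP called 0 of the 6. Jun, Fosb and Atf3 are also immediate early genes, which respond to handling. Of the 15 immediate early genes tested, 2 were higher and 3 lower in TFH against naive cells. In TFR against Treg cells 0 were higher and 2 lower in pLN, and 0 higher and 4 lower in PP. The part of handling in these changes was not tested.

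Among the small MAF proteins and the BACH and NFE2 factors that pair with them, 9 of 12 were tested. In TFH against naive cells 2 were higher and 3 lower, with a median of -0.52. Mafg, a small MAF, rose by 3.05 (SE 0.23, adjusted p = 1.33e-05) and Nfe2 was at least 3.94-fold higher (6.56e-05), whereas Bach2, a repressor that restrains effector differentiation, fell by 3.49 (SE 0.37, 9.43e-05) and Bach1 by 1.06 (0.0128). In TFR against Treg cells of pLN 2 were higher and 3 lower, with Nfe2 at least 2.73-fold higher (0.00162), Bach2 lower (-1.87, 0.00859), Bach1 lower (-1.40, 0.00532) and Mafg higher (1.01, 0.0174). In PP 2 were higher and 1 lower, with Nfe2 at least 10.5-fold higher, Bach2 lower (-2.00, 0.00543) and Mafg higher (1.34, 0.00371). Mean intensity of Bach2 was 5919 in naive, 4263 in Treg, 1176 in TFR and 531 in TFH cells of pLN d12. The pLN TFR count was as low as 1 in the alternatives. The count of 3 in PP TFR against Treg cells was 0 on the arrays of the compared groups alone and 3 in the 11 other alternatives, and 0 of the 9 were called in TFR against GL7+ TFH cells of PP.

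Of the 10 other interferon regulatory factors and ETS partners of IRF4, all 10 were tested and 1 was called in TFH against naive cells, Irf5 (1.87, SE 0.46, adjusted p = 0.0168), a call lost in 4 of 11 alternatives. The list median was -0.02, and 0 were called in TFR against Treg cells of either tissue. Over all tested probes 14.7% were called in TFH against naive cells, so the count of 1 of 10 does not stand out. Of the 9 PAR zipper and clock genes related to NFIL3, 2 were higher and 1 lower in TFH against naive cells. Bhlhe40, a circadian repressor induced by activation, rose by 4.23 (SE 0.49, adjusted p = 0.000178) and Per2 by 1.06 (0.0206, lost in 5 of 11 alternatives), while Dbp, an activator at sites that NFIL3 also binds, fell by 1.52 (9.39e-05). In TFR against Treg cells Bhlhe40 was higher (2.38, 0.0109) and Dbp lower (-1.16, 0.00146) in pLN. In PP Bhlhe40 was higher (2.20, 0.0151), Hlf lower (-1.71, 0.0147) and Dbp lower (-1.56, 0.000196). Bhlhe41 was above background on the 2 PP TFR arrays alone and so entered the tests only through that group. The filter thus set its direction there. Its differences, at least 2.87-fold above Treg and 3.36-fold above GL7+ TFH cells of PP, are a description of detection. The PP count of 4 in TFR against Treg cells, Bhlhe41 included, was 2 without slide 4 or without PP TFR replicate 1. It was 0 on the arrays of the compared groups alone.

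The list of 21 genes known as targets of BATF with IRF4 or of c-MAF in CD4 T cells was all tested. Of all tested probes 14.7% were called in TFH against naive cells, and 8.35% in pLN and 9.25% in PP in TFR against Treg cells. In TFR against GL7+ TFH cells of PP 3.44% were. In TFH against naive cells 10 rose and 0 fell, with a median of 2.03 against -0.09 over all probes. The largest were Il21 (7.29, adjusted p = 1.9e-06) and Il4 (7.06, 4.84e-05), the cytokines of TFH help, Tigit (6.95, 6.92e-06), an inhibitory receptor, and Cxcr5 (6.39, 1.53e-06), the receptor that guides cells into follicles. In TFR against Treg cells of pLN 7 rose and 0 fell, led by Il21 (at least 9.41-fold, 0.000204), Havcr2 (3.04, 0.00935), Tigit (2.89, 0.00292) and Il4 (2.46, 0.0381). In PP 6 rose and 2 fell, led by Il21 (5.55, 2.92e-05), Il4 (4.70, 0.0012), Tigit (3.19, 0.00134) and Bcl6 (3.19, 0.000178), the transcription factor of the follicular programme. TFR against GL7+ TFH cells of PP gave 6 higher and 1 lower, led by Klrg1 (6.26, 8.82e-05), Il1rl1 (5.86, 0.00015), Il10 (at least 27.2-fold, 0.00124) and Ccr8 (4.43, 0.00362), receptors and a cytokine of effector Treg cells. Over the alternatives the pLN TFR count ranged from 1 to 10, 1 coming from the arrays of the compared groups alone, which gave 0 in both PP comparisons. Against Treg cells the PP count of 8 was 4 without slide 4 and 5 without PP Treg replicate 2, and against GL7+ TFH cells the count of 7 was 3 without slide 4 and 4 without PP TFR replicate 2. Several of these genes are also follicular or Treg markers, so the counts are no independent evidence about the factors. Of the 15 targets with a promoter window, 3 held the AP-1 motif TGANTCA (Havcr2, Il17a and Prdm1), as did 6.75% of all windows. The MAF half-site TGCTGAC stood in 3 (Ccr8, Il17a and Il23r) and in 3.81% of all windows. Of the other motifs searched, the GC box was in 4 of the 15, the TATA box in 3, the IRF-type motif in 2, the NFIL3-type in 1 and the CRE in 0. Binding or regulation was not tested.

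**Figure D5:**
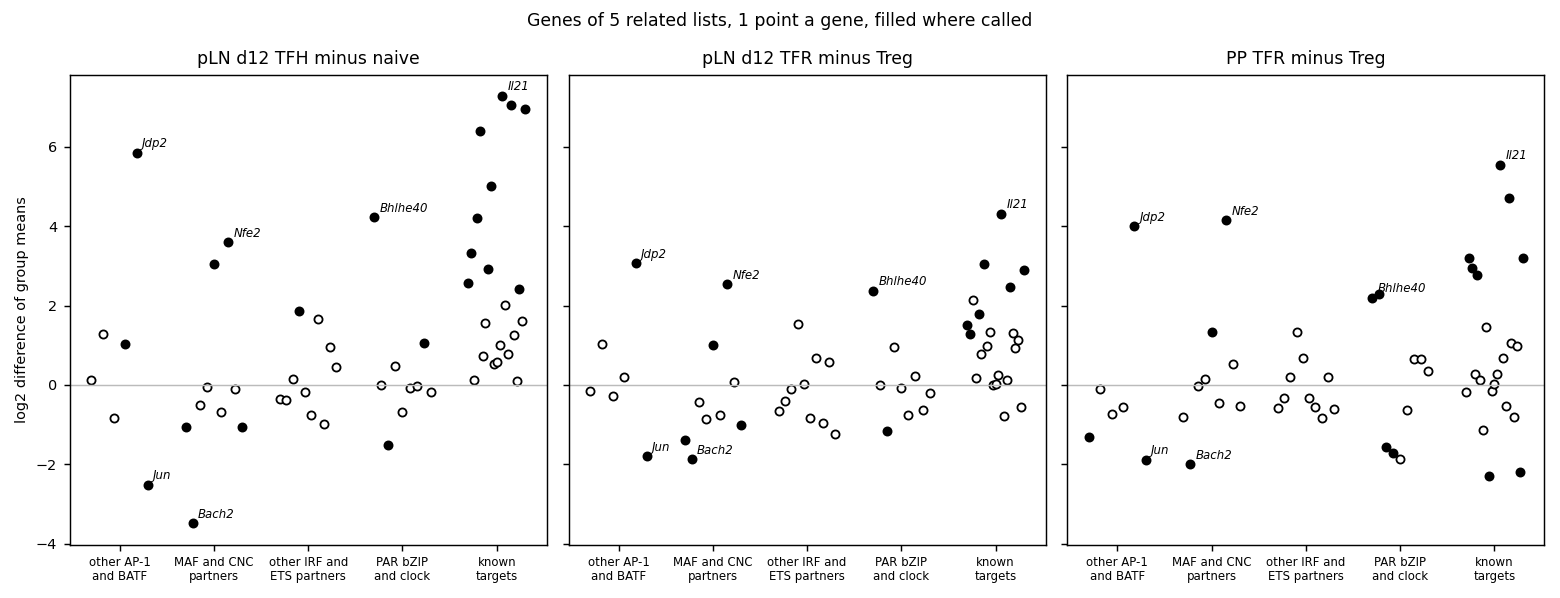
Log2 difference of group means for the tested genes of 5 lists in 3 comparisons, 1 point a gene, filled where called. Jdp2 lies at the top and Jun at the bottom of the AP-1 list in all 3 panels, Bach2 at the bottom of the MAF and CNC list, and the filled targets lie above 0 in both pLN panels.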

How the data were processed

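RNA of sorted CD4 T cells, 40 or 50 ng per array, was amplified in 1 round and hybridised to single-colour Agilent arrays that carry every probe in 4 copies. The deposited scanner files hold feature intensity as processed by Agilent Feature Extraction 10.7.3.1. The authors' table holds mean feature intensity after quantile normalisation, with the 75th percentile set to 1500 and a floor of 20. These steps were repeated from the scanner files, leaving out features beyond 1.42 interquartile ranges or with a pixel coefficient of variation above 0.5. Detection required 3 or more of a probe's 4 features to stand well above background. Probes detected on the 2 arrays of some group were tested.

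Log2 intensity of 22264 probes was fitted in limma 3.58.1 (R 4.3.3) as 12 group means over all 20 arrays, leaving 8 residual degrees of freedom, with 18 contrasts and Benjamini-Hochberg adjustment over all tested probes. Groups came from the labels, and replicate numbers followed the order of the samples. In pLN d12 and in PP, replicates 1 shared a slide and 50 ng of RNA and replicates 2 another slide and 40 ng, so slide as a fixed block is also a block on the number, and slide and RNA input cannot be told apart there. "At least" N-fold stands where a probe was below background on every array of the dimmer group, against the lowest detected signal of each array. Probe positions are those of the scanner files (mm9), and 27592 probes were matched to RefSeq by accession. Motifs were searched with Python 3.11.15. The members and lists were chosen with earlier results of these data known. Named list genes were up to 4 called genes with the largest change per comparison and list, and likeness was Pearson's r over group means. The fit was tested on simulated data.

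Alternatives were 75th percentile scaling alone, normexp (offset 50), the authors' table, no filter, the compared arrays alone, leaving out each array, slide as a fixed or random block, leaving out slide 4, and the second Maf probe. The last was chosen after seeing the data. 1 gene that the likeness rule picked for Irf4 is not reported here.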

Additional observations from a re-analysis of the deposited data

Results flagged for a closer look

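Effects of 1 contrast that differed between 2 lineages or tissues, by a test of the difference itself in limma, were found for 3 members. The follicular step in pLN d12 (TFR minus Treg, less TFH minus naive) was -4.36 for Maf, with steps of 1.18 and 5.54 in the regulatory and the helper lineage, and adjusted p = 0.00303. For Nfil3 it was -2.16, with steps of 1.75 and 3.91 and adjusted p = 0.0212. Those Nfil3 steps began at means of 1129 in Treg and 254 in naive cells and ended at 3778 in TFR and 3830 in TFH cells. The tissue difference of TFR minus TFH (PP less pLN) was 2.11 for Fosl2, with differences of 1.93 in PP and -0.17 in pLN and adjusted p = 0.0281. In the last of these the TFR and TFH arrays lay on the same slides, so a slide effect common to both cell types cancels. A slide effect that differs between TFR and TFH cells cannot be told apart from tissue there. No member's group was large enough for a test of single outlying arrays.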

How the results depend on the processing

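Under other settings 370 values of single members were judged, all from comparisons in which the member was called under at least 1 setting. They kept their direction in every case, 294 on the same side of the threshold, 59 losing and 17 gaining a call. The direction of members never called in a comparison was not judged. Of the 22 calls, 5 held throughout: Batf, Irf4, Maf and Nfil3 in TFH against naive cells and Fosl2 in GL7+ TFH against Treg cells of PP. Fitting the compared arrays alone, with few residual degrees of freedom, gave 0 called members in Treg minus naive, TFR minus Treg (pLN and PP), PP TFR minus TFH, Treg and TFR of PP minus pLN and both called differences of differences, and 1 in PP TFH minus Treg. In pLN TFR minus TFH the count was 1 (Maf) with normexp, the authors' table, and slide as a fixed or random block. In Treg of PP minus pLN it was 2 with normexp or the second Maf probe, and 0 with the random block or without slide 4. In TFR of PP minus pLN it was 1 with normexp or without slide 4 and 0 with the random block. In the tissue difference of TFR minus TFH it was 2 with the random block and 0 with no filter or without slide 4. It was 1 in PP TFR minus TFH without slide 4 and 1 in TFH of PP minus pLN with the second Maf probe. The cause of these moves was not tested.

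Leaving out 1 array at a time gave 4 to 4 called members in TFH minus naive, 2 to 3 in Treg minus naive, 2 to 2 in TFR minus Treg of either tissue, 1 to 2 in PP TFR minus TFH, 2 to 2 in PP TFH minus Treg, 0 to 0 in Treg of PP minus pLN, 0 to 2 in TFR of PP minus pLN, 0 to 1 in the tissue difference of TFR minus TFH, 1 to 2 in the lineage difference and 0 in all others. Scaling to the 75th percentile alone moved the median of all probes to -0.14 in TFH minus naive and -0.13 in pLN TFR minus Treg, small beside the members' calls there. Signal over background limits the second Maf probe, Nfe2, Atf3, Bhlhe41, Il21 in pLN and Il10, which were below background in whole groups.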
